A study of Drosophila melanogaster with 18 samples.

Results

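The genes described here form the synaptic vesicle release machinery of the fly. They are 40 genes listed by name for their known part in calcium-triggered fusion, the active zone, the vesicle itself, endocytosis and synaptic adhesion. The list rests on names and known roles, with no threshold on a measured value, but it was chosen with earlier results of these data known. In the table of ageing male heads 38 of the 40 were found among 10884 genes, and in the table comparing foxo mutant with wild-type female heads 38 were found among 10480. The other two, stnA and stnB, are annotated on the same 8332 exon bases of 1 transcript on the X chromosome and were not analysed here. Cadps, the calcium-dependent activator protein for secretion, stands in the female table under its older name Caps.

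Polyadenylated RNA of Drosophila melanogaster heads was measured in 18 libraries, 6 groups of 3, to find genes under foxo control and trace them over adult life. FOXO proteins are transcription factors that insulin signalling restrains. Wild-type flies were the line 5905, which carries w1118, and their male heads were taken 3, 15, 30 and 45 days after eclosion. The mutant comparison used females at day 3, wild type of the same line against flies homozygous for the foxo allele c431, so it differs from the age series in sex and rests on 1 allele. All flies were raised at 25 °C. Male libraries held between 2999956 and 4102364 recovered reads, and the least read of the 38 genes had 129 reads in its lowest library. Female values come as the authors' comparison, with no value and no depth per library. Whether the 3 replicates of a group were collected separately is not stated, so the tests weigh differences against the spread between libraries, which may be technical.

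At a synapse, vesicles filled with transmitter are docked and primed at the active zone, a protein scaffold that also gathers calcium channels. Calcium entering the terminal binds synaptotagmin, and the SNARE proteins of vesicle and plasma membrane, held ready by complexin, complete the fusion. The membrane is then taken back by adaptors, clathrin and dynamin and made into new vesicles, and the spent SNARE complexes are pulled apart by NSF and its partner SNAP proteins. A fly head holds neurons, those of the retina among them, beside glia, muscle, fat body and blood cells. Whole-head RNA does not show which of these cells transcribed each gene.

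Nearly the whole set declined in male heads between day 3 and day 45. By limma, with a Benjamini-Hochberg adjusted p under 0.05 over all 8921 tested genes, 33 of the 38 were lower at day 45 and 0 were higher. The 33 make 86.8% of the set, beside 18.3% of all tested genes called lower and 17.4% called higher. The count of 0 higher is also 0 at an unadjusted p under 0.05, by limma and by edgeR and DESeq2 on recovered reads. The median log2 change of the 38 was -0.52, a level 69.5% of that at day 3, while the median of all tested genes was 0.00. Every one of the 38 changes lay below 0, from -0.997 for cpx to -0.03 for Sytalpha, and the 33 called changes ran from -0.997 to -0.25. In 33 genes each day 45 library was below each day 3 library, which held for 22.9% of all tested genes. A normalized count is a read count that the authors scaled to a common library size. The summed normalized count of the 38 genes was 68145 ± 5883 (SD, n = 3) at day 3 and 43816 ± 787 at day 45, or 1.90% and 1.34% of all counts. In whole heads, fewer of the cells that express these genes and less of these RNAs in each cell cannot be told apart.

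Most markers of neurons fell as well, by unequal amounts. The direction of many members depends on whether they are set against all genes or against the median of those markers. Of 15 neuron markers 12 were lower at day 45 and 0 higher (also 0 at an unadjusted p under 0.05), with a median log2 change of -0.56. Among all tested genes 18.3% were called lower and 17.4% higher. The changes of the 15 ran from -1.27 for Gad1 to -0.11 for jeb, and the 3 not called were elav, bru3 and jeb. The summed count of the 15 ran from 31382 to 38982 at day 3 and from 21216 to 22835 at day 45. None of them was at 0 in any library. The markers were elav, fne, Appl, futsch, Rdl, Sh, ChAT, VAChT, VGlut, Gad1, jeb, CadN, bru3, nrv3 and Ank2, none of them a member. The gene elav, which encodes the RNA-binding protein used as the standard neuron label, changed by -0.20 ± 0.09 (limma log2 change ± SE, adjusted p = 0.0919). When each library was divided by the median ratio of those 15 markers to their mean, a scaling chosen after seeing the data, the median log2 change of the 38 genes became 0.03 and that of all genes 0.56. On that neuron-marker scale 18 members stayed below 0 and 20 lay above it, 5 were called lower, 9 were called higher and 24 were not called. The scaling moves all genes upward, so that 90.6% of all tested genes lay above 0, 2.38% were called lower and 67.3% higher. The 5 called lower were cpx, Syt1, Syngr, comt and shi, and the 9 called higher were Sytalpha, Liprin-alpha, Sytbeta, Rph, dlg1, Nlg2, unc-13, AP-2alpha and Rim.

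**Figure D1:**
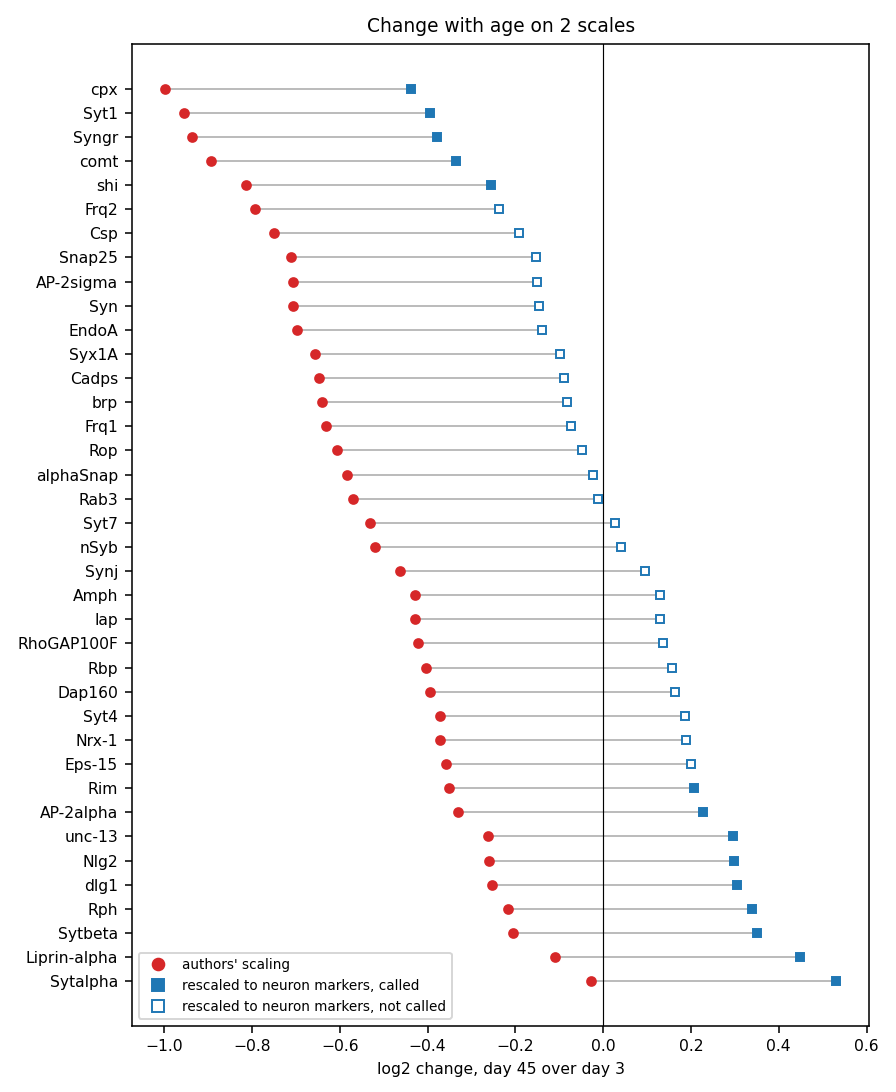
Log2 change from day 3 to day 45 (horizontal axis) of each of the 38 genes, on the authors' scaling (red circles) and after rescaling to the 15 neuron markers (blue squares, filled where limma's adjusted p was under 0.05). All 38 circles lie below 0, whereas 20 squares lie above it, and the order from cpx at the top to Sytalpha at the bottom is kept.

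Markers of other cell types changed too, in counts to be read beside 18.3% of all tested genes called lower and 17.4% called higher. Of 9 muscle markers 7 were lower, with a median log2 change of -1.05. Their summed count was between 12025 and 18159 at day 3, the highest in replicate 1, and between 7644 and 8027 at day 45. Photoreceptor markers were lower in 6 of 11 and higher in 1, and glia markers lower in 4 and higher in 4 of 10. Fat body markers were higher in 3 of 8, and blood cell markers lower in 5 and higher in 3 of 9. No neuron, photoreceptor, glia or muscle marker was at 0 in a male library, and at most 2 fat body and 1 blood cell marker were. The part of these cell types in the members' change was not tested. The 2 libraries that differed most from the others of their age were day 3 replicate 1 and day 45 replicate 3, and without both of them 28 members were still lower at day 45.

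**Figure D2:**
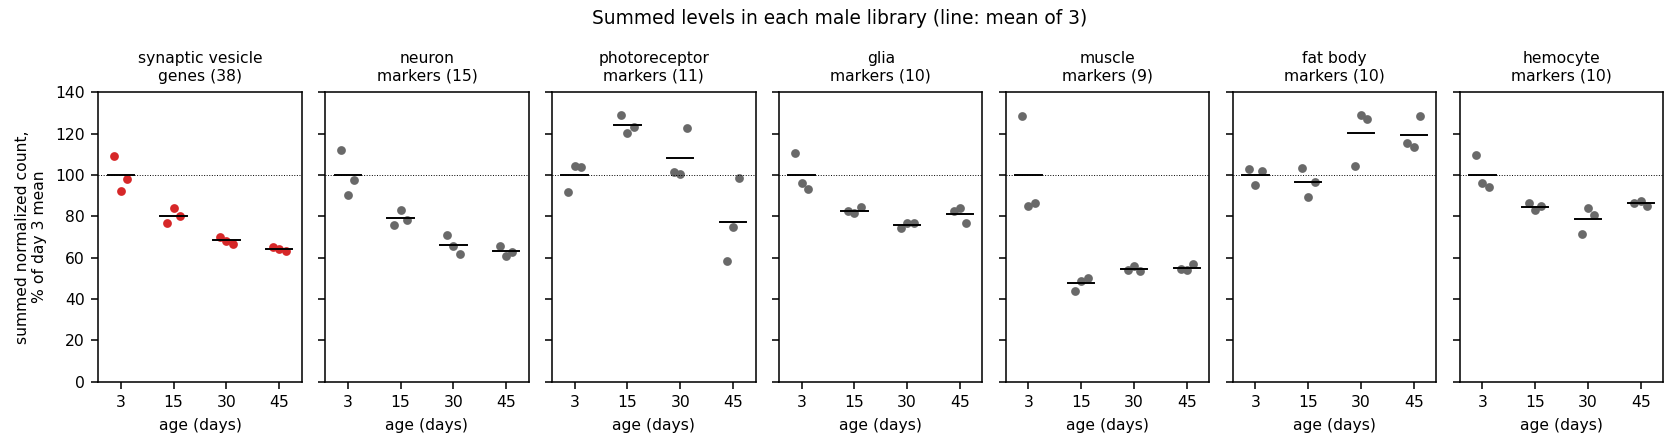
Summed normalized counts of the 38 synaptic vesicle genes and of 6 marker lists in each male library, as a percentage of the mean at day 3 (vertical axis), by age in days (horizontal axis), with points for libraries and a line for the mean of 3. In these sums the synaptic vesicle genes and the neuron markers step down together over the ages, and the muscle markers drop before day 15 only. The mean photoreceptor sum is highest at day 15, but single markers differ. Of the 11, limma called 2 lower and 1 higher at day 15 than at day 3, beside 7.42% and 5.95% of all tested genes.

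The fusion genes fell together. All 8 genes of SNARE assembly and fusion fell between day 3 and day 45, with a median log2 change of -0.68, although nSyb lay above 0 on the neuron-marker scale. The most changed was cpx, at 3R:4280221-4304604 of dm6, which encodes complexin, the small protein that clamps and then helps the SNARE complex. Its normalized counts were 14351, 11776 and 11911 at day 3, 8869, 9473 and 9251 at day 15, 7495, 7369 and 7951 at day 30 and 6103, 6061 and 6839.6 at day 45. The values step down from age to age and the day 3 and day 45 libraries are far apart. This is a log2 change of -0.997 ± 0.09 (limma, SE, adjusted p = 3.75e-07), about 50.1% of the starting level. For comt, the NSF ATPase that takes used SNARE complexes apart, counts were 1834, 1589 and 1625 at day 3, 1178, 1248 and 1288 at day 15, 1004, 1003 and 901 at day 30 and 906, 906 and 898 at day 45. The 3 day 45 libraries lie within a few counts of one another, and the change was -0.89 ± 0.07 (limma log2 change ± SE, adjusted p = 1.72e-07). Csp, the cysteine string protein, a vesicle-bound chaperone that keeps Snap25 folded in mammals, was at 1396, 1325 and 1329 at day 3, 1024, 1069 and 1012 at day 15, 851, 875 and 888 at day 30 and 792, 837 and 778 at day 45. Its 4 ages do not overlap at all, and it changed by -0.75 ± 0.06 (limma, adjusted p = 2.33e-07).

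The 3 SNARE genes themselves were all called lower, though nSyb lay above 0 on the neuron-marker scale. Syntaxin, encoded by Syx1A and anchored in the plasma membrane, was at 718, 520.3 and 604 at day 3, 424, 498 and 455 at day 15, 386, 420.1 and 444 at day 30 and 413, 406 and 342 at day 45. All later libraries lie below those of day 3 and close to one another, and the change to day 45 was -0.66 ± 0.11 (limma, adjusted p = 0.000173). Of its annotated exon bases 10.7% are shared with eIF4EHP on the same strand. Neuronal synaptobrevin, nSyb at 3L:1630348-1637752, the SNARE of the vesicle membrane, was at 5211, 4510.3 and 4559.6 at day 3, 4294, 4576 and 4361 at day 15, 3906, 3671 and 3905 at day 30 and 3054, 3331 and 3579.7 at day 45. At day 15 its libraries overlap those of day 3, and they are lower afterwards, with a change of -0.52 ± 0.08 in all (limma, adjusted p = 8.28e-05). On the neuron-marker scale its change was 0.04 (adjusted p = 0.756). Snap25, the other plasma membrane SNARE, changed by -0.71 ± 0.08 (limma, adjusted p = 2.18e-06) and Rop, the fly Munc18 that holds syntaxin, by -0.61 ± 0.07 (adjusted p = 2.59e-06). The adaptor alphaSnap, which recruits NSF, was at 1183, 1052 and 1071 at day 3, 866, 1009.5 and 965 at day 15, 807, 858 and 836 at day 30 and 714, 722 and 769 at day 45. Day 3 and day 45 are well apart, at -0.58 ± 0.08 (limma, adjusted p = 1.48e-05). Of its exon bases 15.0% lie opposite the antisense RNA CR43875, from which reads cannot be separated if strand was not used in counting.

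Among the calcium sensors the fall was uneven. Of 7, 5 fell by day 45 and 2 were not called, with a median log2 change of -0.53, and Syt7, Syt4, Sytbeta and Sytalpha lay above 0 on the neuron-marker scale. Syt1, at 2L:2772327-2799979, encodes synaptotagmin 1, the sensor of fast release. Its counts were 6787, 5365 and 6068 at day 3, 4100.3, 4589 and 4333 at day 15, 3508, 3289 and 3297 at day 30 and 3180.3, 3191 and 2996 at day 45. Each age lies below the one before without overlap, though days 30 and 45 are close, and the total change was -0.95 ± 0.08 (limma, adjusted p = 3.17e-07). Frequenins are calcium-binding regulators of release, and the neighbouring paralogs Frq1 and Frq2 are so alike that reads may be shared between them. Frq2 was at 377, 321 and 371 at day 3, 243, 232 and 292 at day 15, 205, 228 and 196 at day 30 and 236, 215 and 169 at day 45. Frq1 was at 861, 687 and 801 at day 3, 578, 677 and 631 at day 15, 528, 533 and 522 at day 30 and 526, 496 and 489 at day 45. In both, the libraries of day 3 stand above all those of day 45, with changes of -0.79 ± 0.12 (limma, adjusted p = 6.92e-05) and -0.63 ± 0.09 (adjusted p = 2.30e-05).

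The other synaptotagmins had smaller changes than Syt1, with no test of the difference between genes. Syt4, which in flies also acts in signalling back from muscle to motor neuron, was at 1673, 1474 and 1440.0 at day 3, 1330.2, 1439.9 and 1419 at day 15, 1181, 1127 and 1181 at day 30 and 1189, 1245 and 1104 at day 45. Its lowest day 3 and highest day 15 libraries all but coincide. The change of -0.37 ± 0.07 by day 45 (limma, adjusted p = 0.000887) turned to 0.19 on the neuron-marker scale (adjusted p = 0.0778). Syt7, in mammals a sensor of slow and facilitated release, changed by -0.53 ± 0.07 (limma, adjusted p = 3.54e-05). Sytalpha was at 319, 319 and 333 at day 3, 316, 348 and 323 at day 15, 357, 328 and 292 at day 30 and 345, 303 and 307 at day 45. Its 4 ages overlap throughout, and the change of -0.03 ± 0.09 (limma, adjusted p = 0.839) was not called. Sytbeta, with a change of -0.21 ± 0.13 (limma, adjusted p = 0.252), was not called either.

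**Figure D3:**
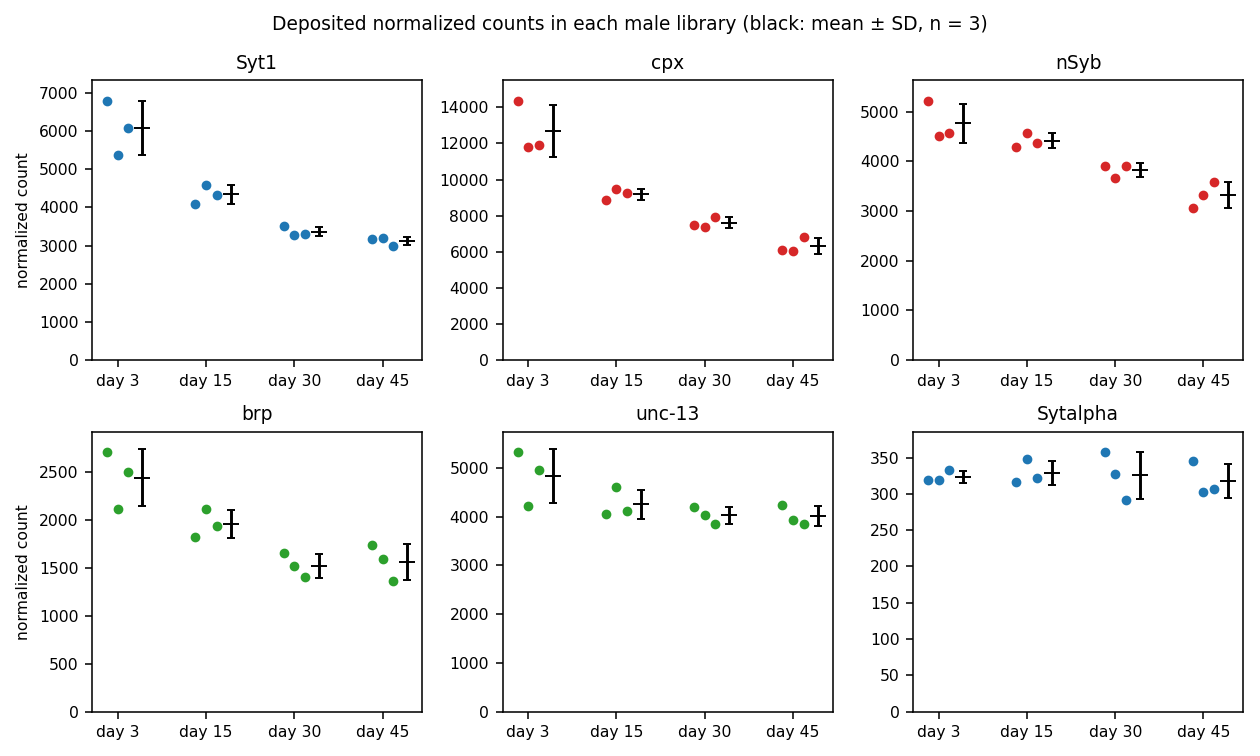
Normalized counts (vertical axes, from 0) of Syt1, cpx, nSyb, brp, unc-13 and Sytalpha in each of the 12 male libraries by age, with the mean and SD of 3 libraries in black. The day 45 points of Syt1, cpx, nSyb and brp all lie below their day 3 points, those of unc-13 overlap them slightly and those of Sytalpha sit at the same height.

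Genes of the active zone and of priming had a smaller median change than the fusion genes, a difference that was not tested. Of 7, 6 were lower at day 45 and Liprin-alpha was not called (-0.11 ± 0.10, limma adjusted p = 0.43), with a median log2 change of -0.40, and Cadps and brp alone stayed below 0 on the neuron-marker scale. Cadps, needed to prime dense-core and synaptic vesicles, was at 2519.6, 2037 and 2355 at day 3, 1651, 1829.5 and 1638 at day 15, 1629, 1592 and 1504 at day 30 and 1455, 1473 and 1467 at day 45. Most of its change came before day 15, where the libraries already lie below day 3, and it reached -0.65 ± 0.08 by day 45 (limma, adjusted p = 8.98e-06). Bruchpilot, encoded by brp at 2R:9503765-9541565, builds the electron-dense bar of the fly active zone, and its counts were 2706, 2118 and 2500.4 at day 3, 1824, 2111 and 1942 at day 15, 1651, 1516 and 1402 at day 30 and 1741, 1589 and 1368 at day 45. Day 30 and day 45 lie together below day 3, with a change of -0.64 ± 0.10 (limma, adjusted p = 0.000116).

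RhoGAP100F is the fly Syd-1, an early organiser of the active zone. It was at 1096, 935 and 1120.1 at day 3, 836, 975 and 951 at day 15, 743, 791 and 696 at day 30 and 904, 780.2 and 676 at day 45. The lowest day 3 library stands just above the highest of day 45, and the change was -0.42 ± 0.10 (limma, adjusted p = 0.0036), or 0.14 on the neuron-marker scale (adjusted p = 0.207). Rbp, the RIM-binding protein that ties calcium channels to the scaffold, was at 1005, 909 and 1072 at day 3, 767, 912 and 819 at day 15, 808, 691 and 684 at day 30 and 859.6, 739 and 668 at day 45. It shows the same near-touching of young and old, at -0.40 ± 0.10 (limma, adjusted p = 0.00455), or 0.16 on the neuron-marker scale (adjusted p = 0.143). Rim, a scaffold protein that binds Rab3 and Unc13, changed by -0.35 ± 0.10 (limma, adjusted p = 0.014). For unc-13, at 4:867824-912331 on the small chromosome 4, which encodes the priming factor that opens syntaxin, counts were 5316, 4220.2 and 4949.9 at day 3, 4049.7, 4597 and 4115 at day 15, 4194, 4040.0 and 3843 at day 30 and 4247, 3929.5 and 3849.5 at day 45. Here the groups overlap, the highest day 45 library being above the lowest at day 3.

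The call of unc-13 had the highest adjusted p of the 33. Its change of -0.26 ± 0.09 (limma, adjusted p = 0.0267) was 0.30 on the neuron-marker scale (adjusted p = 0.00782). It was not called without day 3 replicate 1 (adjusted p = 0.117), day 3 replicate 3 (0.0852), day 45 replicate 2 (0.0785) or day 45 replicate 3 (0.0699), and when only the 2 ages entered the fit (0.0774). Of its exon bases 28.4% are shared with other annotated features, mostly antisense RNAs. Day 3 replicate 1 and day 45 replicate 3 were also left out together. Among the members with values given in every library, this also ended the calls of RhoGAP100F (limma adjusted p = 0.0508), Nrx-1 (0.111) and dlg1 (0.0579).

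Genes for proteins carried by the vesicle were among the most changed. Of 4 genes 3 fell, with a median log2 change of -0.64, and Rph, the Rab3 effector rabphilin, was not called (-0.22 ± 0.10, limma adjusted p = 0.104) and lay above 0 on the neuron-marker scale. Syngr encodes synaptogyrin, a membrane protein of synaptic vesicles, and was at 966, 831 and 773 at day 3, 574, 594 and 611 at day 15, 499, 486 and 498 at day 30 and 429, 428 and 481 at day 45. Each age lies below the one before, with a change of -0.94 ± 0.08 in all (limma, adjusted p = 3.17e-07), and was close to 52.3% of its starting level. Synapsin, encoded by Syn and known for tethering the reserve pool of vesicles, was at 2644, 2274 and 2431 at day 3, 1922, 2004 and 1962 at day 15, 1785, 1615 and 1469 at day 30 and 1565, 1469 and 1465 at day 45. All its later libraries lie below day 3, with a change of -0.71 ± 0.08 (limma, adjusted p = 3.45e-06). Rab3, the small GTPase of synaptic vesicles, was at 1507, 1341 and 1324 at day 3, 1010.3, 1153 and 1191 at day 15, 993, 949 and 917 at day 30 and 1025, 946 and 843 at day 45. Days 30 and 45 overlap each other and stand below day 3, at -0.57 ± 0.09 (limma, adjusted p = 6.90e-05).

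All 9 measured genes of endocytosis fell from day 3 to day 45, with a median log2 change of -0.43, but Synj, Amph, lap, Dap160, Eps-15 and AP-2alpha lay above 0 on the neuron-marker scale. Dynamin, encoded by shi at X:15892116-15906716, pinches the new vesicle off, and its counts were 3839, 3028 and 3278 at day 3, 2336, 2573 and 2485 at day 15, 2053, 2129.8 and 1932 at day 30 and 1918, 1999.5 and 1829 at day 45. The ages separate down to day 30, and the change was -0.81 ± 0.08 (limma, adjusted p = 1.53e-06). AP-2sigma, the small subunit of the clathrin adaptor AP-2, was at 250.4, 223 and 201 at day 3, 166, 148 and 136 at day 15, 156, 143 and 139 at day 30 and 139, 122 and 151 at day 45. Most of its drop was reached at day 15, and at -0.71 ± 0.11 it was larger than that of AP-2alpha, another subunit of the same adaptor, at -0.33 ± 0.07 (limma, adjusted p = 0.000105 and 0.00156), a difference between genes that was not tested. EndoA encodes endophilin, which bends the membrane of the vesicle neck, and was at 1689, 1524 and 1687 at day 3, 1318, 1382 and 1263 at day 15, 1156, 1106 and 1025 at day 30 and 1047, 999.8 and 970.0 at day 45. No library of day 3 overlaps a later one, and the change was -0.70 ± 0.07 (limma, adjusted p = 1.57e-06).

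The rest of the endocytic genes had smaller changes. The fly AP180, encoded by lap and setting the size of vesicles, was at 1441, 1192 and 1231 at day 3, 1052, 1155 and 1124 at day 15, 981, 1008 and 949.8 at day 30 and 958, 986 and 916 at day 45. Day 3 stands above day 45 without overlap, at -0.43 ± 0.08 (limma, adjusted p = 0.000353), or 0.13 on the neuron-marker scale (adjusted p = 0.18). Synj (synaptojanin, a lipid phosphatase that helps shed the clathrin coat), Dap160 (the scaffold intersectin) and Eps-15 had changes between -0.46 and -0.36. Amph, amphiphysin, which in flies is best known for organising muscle membrane tubules, changed by -0.43 ± 0.08 (limma, adjusted p = 0.0005), and 6.99% of its exon bases lie opposite a noncoding RNA. Of the 9 muscle markers 7 were lower by day 45 as well, and their part in the change of Amph was not tested.

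Adhesion and scaffold genes had the smallest median change of the 6 roles, -0.26, with 2 of 3 lower at day 45 and all 3 above 0 on the neuron-marker scale. Neurexin, encoded by Nrx-1 and linking the terminal to its target, was at 2020.1, 1742 and 1941 at day 3, 1559, 1693 and 1669 at day 15, 1519, 1454 and 1268 at day 30 and 1657, 1544 and 1234 at day 45. The highest of day 45 comes close to the lowest of day 3, with a change of -0.37 ± 0.10 (limma, adjusted p = 0.0079), or 0.19 on the neuron-marker scale (adjusted p = 0.0714). The scaffold gene dlg1, the fly relative of mammalian PSD-95, was at 1532, 1359 and 1405 at day 3, 1208, 1232 and 1256 at day 15, 1147, 1279 and 1212 at day 30 and 1225, 1187 and 1186 at day 45. Days 15, 30 and 45 lie at one height below day 3, at -0.25 ± 0.07 (limma, adjusted p = 0.00805), or 0.30 on the neuron-marker scale (adjusted p = 0.0103). For Nlg2, neuroligin 2, every day 45 library was below every day 3 library, but the change of -0.26 ± 0.10 missed the threshold (limma, adjusted p = 0.0508).

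**Figure D4:**
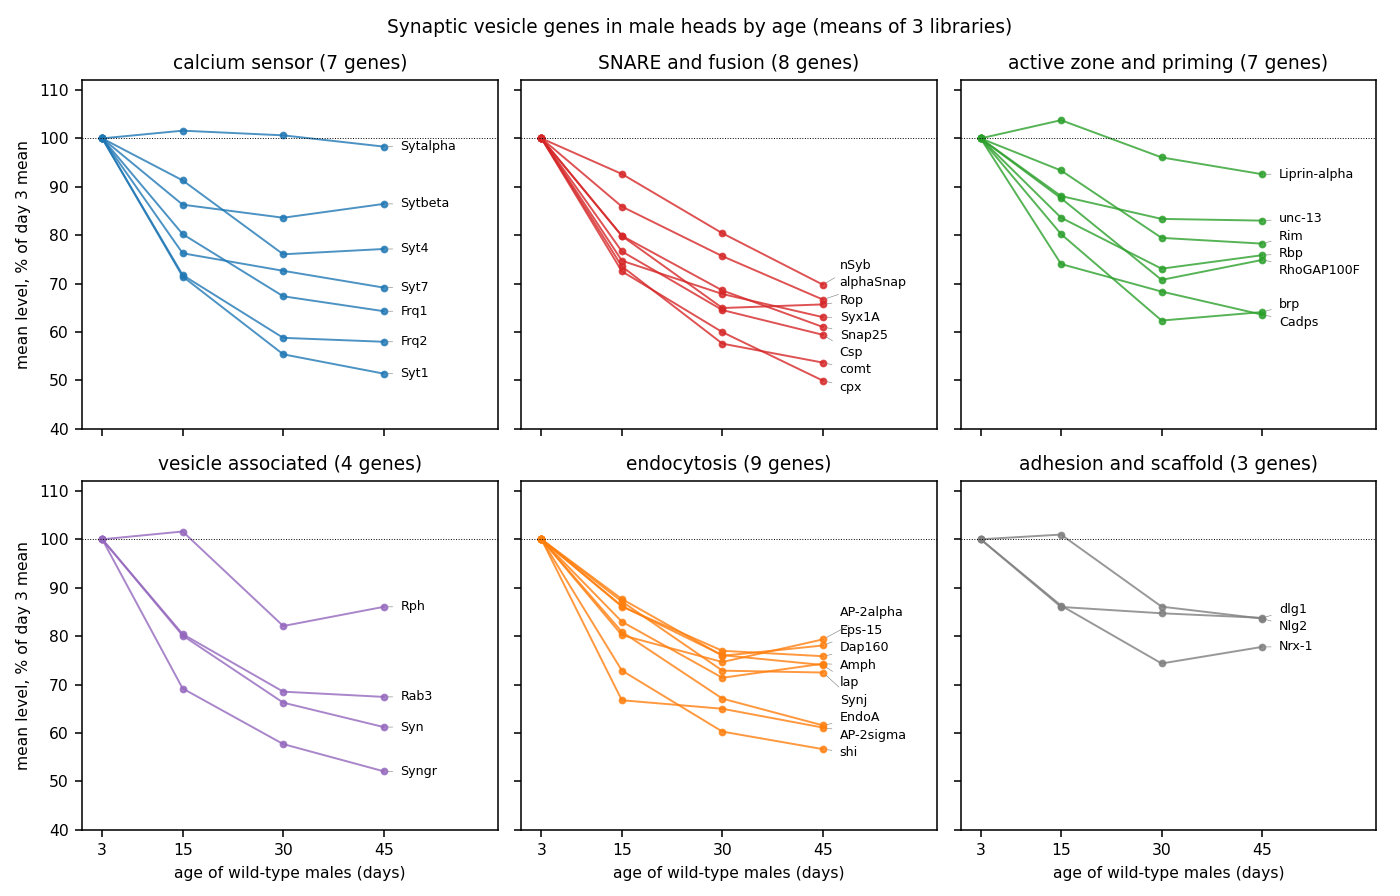
Mean normalized count of each gene as a percentage of its day 3 mean (vertical axis) at days 3, 15, 30 and 45 (horizontal axis), in 6 panels by role, each line 1 gene and each point a mean of 3 libraries. Most lines drop fastest before day 15 and flatten after day 30, while Sytalpha and Liprin-alpha stay near 100%. The percentages are on the authors' scaling, and on the neuron-marker scale 20 of the 38 day 45 changes lie above 0.

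The decline was front-loaded in most members, but the test of that shape passed for 1 gene. Between days 3 and 15 limma called 20 members lower, 52.6% of the set beside 7.42% of all genes. It called 0 higher, beside 5.95% of all genes, and the count higher at an unadjusted p under 0.05 was also 0 by limma, edgeR and DESeq2. The median log2 change was -0.29, and all 20 were also lower at day 45. The count was 12 without day 15 replicate 1 and 13 without day 3 replicate 1, and on the neuron-marker scale it was 0, with 3 members higher, beside 1.5% of all genes lower and 32% higher. Between days 15 and 30 it called 3 lower, Syt1, comt and Rop, beside 0.998% of all genes, and 0 higher, beside 0.919%. All 38 changes lay below 0 (19 on the neuron-marker scale, where 86.2% of all genes lay above 0), with a median of -0.22, and 26 members had every day 30 library below every day 15 library, beside 11.7% of all genes. The 3 became 0 without day 15 replicate 2 or 3 or day 30 replicate 2 or 3, and 1 without day 15 replicate 1. They became 5 without day 30 replicate 1, 7 without day 45 replicate 3 and 8 without day 3 replicate 1, and DESeq2 on recovered reads called 9. On the neuron-marker scale 0 were called lower, beside 0.0448% of all genes.

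From day 30 to day 45 limma called 0 members lower, beside 0.135% of all genes, and 0 higher, beside 0.28%. On recovered reads edgeR and DESeq2 also called 0. At an unadjusted p under 0.05 limma, edgeR and DESeq2 had 4, 4 and 3 lower and 0 higher. The median log2 change was -0.03, and 27 of the 38 lay below 0 (18 on the neuron-marker scale, where 59.3% of all genes lay above 0). In 8 members, and in 6.87% of all genes, every day 45 library was below every day 30 library. The largest change in this interval was that of cpx, at -0.27 ± 0.09 (limma, adjusted p = 0.329), followed by nSyb at -0.21 ± 0.08 (adjusted p = 0.415). The largest of the 3 steps was the first for 26 members, the second for 10 and the last for 2, and the mean was lower at every step for 24. Among the 33 called members the median share of the whole log2 change reached by day 15 was 52.8%, from 20.7% for nSyb to 95.7% for AP-2alpha, and by day 30 it was 90.9%. When the change from day 3 to 15 was tested against that from day 30 to 45 in the same fit, a comparison added after seeing the data, AP-2alpha alone passed (-0.40 ± 0.10, limma adjusted p = 0.042). That is 1 lower and 0 higher, beside 1.32% and 0.953% of all genes, while 16 members were lower and 0 higher at an unadjusted p under 0.05. The count lower was 4 without day 3 replicate 2, 3 without day 45 replicate 3 and 1 without day 15 replicate 2. It was 0 without any other single library, and 0 on the neuron-marker scale, beside 0.202% of all genes. The muscle markers had their whole fall in the first interval, 8 of 9 lower at day 15, beside 7.42% of all genes. Their median log2 change was -1.10, and their part in the members' early step was not tested.

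Levels differed widely between members once exon length was taken into account. At day 3 the highest normalized count per kilobase of annotated exon was that of nSyb, 1169 ± 96.1 (SD, n = 3), and cpx, at 1111 ± 127, overlapped it. Syt1 at 845 ± 98.9 and Snap25 at 779 ± 38.2 came next and overlapped each other. Then shi at 565 ± 69.3 led a run of genes, with comt, alphaSnap, Rop and Syt4, in which the libraries of neighbours in the order overlapped. The lowest were Liprin-alpha at 58.9 ± 5.19, Rph at 47.6 ± 4.38 and Sytbeta at 40.6 ± 5.47. The libraries of neighbours in this order overlapped in 29 of 37 cases. At day 45 nSyb and cpx were still at the top, at 816 ± 64.6 and 555 ± 38.4 per kilobase and without overlap, and Snap25, at 475 ± 24.4, had passed Syt1, at 434 ± 15.3. Members with a high level per kilobase had the larger changes in the main. Taking the level from the authors' deposited table of females, which shares no library with the ages, Spearman's rho between log2 mean per kilobase and the log2 change to day 45 was -0.61 over the 38 genes, against -0.03 over 8572 genes. This describes genes that are not independent.

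Beside 3 neuronal members stands a paralog of wider use, and none of these 3 paralogs was called lower. Of 11 further fusion genes, the 3 paralogs among them, 5 were lower and 3 higher at day 45. Of all tested genes 18.3% were lower and 17.4% higher. The 5 lower were Sap47, gammaSnap1, Syt14, tomosyn and Syt12. Syb, the broadly expressed synaptobrevin, had counts of 308, 266 and 292 at day 3 and 407, 398 and 440.0 at day 45. All old libraries are above all young ones, with a log2 change of 0.52 ± 0.08 (limma, adjusted p = 6.45e-05), against the fall of nSyb. Nsf2, the second fly NSF gene, was at 140.5, 152 and 172 at day 3 and 202, 189 and 194 at day 45, a change of 0.33 ± 0.10 (limma, adjusted p = 0.0176), against the fall of comt. Snap24 was at 211, 204 and 222 at day 3 and 217, 246 and 228 at day 45, a change of 0.11 ± 0.09 that was not called (limma, adjusted p = 0.368), against the fall of Snap25.

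The ratio within each library hardly depends on the scaling. The mean log2 ratio of nSyb to Syb went from 4.04 ± 0.07 (SD, n = 3) to 3.00 ± 0.08, that of comt to Nsf2 from 3.43 ± 0.24 to 2.21 ± 0.05, and that of Snap25 to Snap24 from 3.06 ± 0.09 to 2.23 ± 0.14. In each of these 3 pairs every day 45 ratio was below every day 3 ratio. The two-sided exact permutation test gave p = 0.1 for each, the smallest p that 3 against 3 allows, and 0.133 adjusted over the 4 pairs compared. The fourth pair, Frq1 to Frq2, both members, went from 1.13 ± 0.05 to 1.29 ± 0.20 with overlapping libraries (exact permutation p = 0.2, adjusted 0.2). The pairs were chosen after the values were seen.

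A further 45 genes of fusion, active zone, endocytosis, vesicle transport and adhesion were listed as the rest of the pathway, of which 44 were in the male table. Of these 20 were lower and 4 higher at day 45, beside 18.3% and 17.4% of all tested genes, with a median log2 change of -0.24. On the neuron-marker scale 39 of the 44 lay above 0, beside 90.6% of all genes. One of the 44, CadN, is also among the 15 markers that set that scale. There 2 were called lower, AP-2mu and Sap47, and 25 higher, beside 2.38% and 67.3% of all genes. The most lowered was AP-2mu, the medium subunit of the AP-2 adaptor, with a mean count of 349 ± 20.1 (SD, n = 3) at day 3 and 172 ± 9.22 at day 45 (log2 change -1.01 ± 0.09, limma adjusted p = 3.79e-07). Sap47, which encodes a synapse-associated protein, was at 5552 ± 635 and 2830.5 ± 109 (limma, -0.97 ± 0.08, adjusted p = 2.05e-07). The next was gammaSnap1, at 169 ± 11 and 100.2 ± 9.47 (limma, -0.75 ± 0.11, adjusted p = 4.31e-05). The most raised were Syb, CG10069, a transporter of the major facilitator family, at 0.37 ± 0.14 (limma, adjusted p = 0.0486), and Esyt2, the extended synaptotagmin of membrane contact sites, at 0.36 ± 0.07 (adjusted p = 0.000659). The calcium channel gene cac, whose product opens at the active zone, changed by -0.35 ± 0.09 (limma, adjusted p = 0.00539), or 0.21 on the neuron-marker scale (adjusted p = 0.0295). Both clathrin genes, Chc at -0.06 ± 0.07 (limma, adjusted p = 0.539) and Clc at 0.05 ± 0.07 (adjusted p = 0.586), were not called, but on the neuron-marker scale they were higher, at 0.50 and 0.61 (adjusted p = 0.00019 and 0.000148). These 3 were picked from the list for their roles after their values were seen.

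By a fixed likeness rule, the 5 genes outside the set with the highest Pearson correlation to brp and to Syt1 over the 12 male libraries, on log2 values, were looked up. For brp they were NaCP60E (0.993), a voltage-gated cation channel gene, unc79 (0.991), CG43707 (0.989), unc80 (0.989) and Nckx30C (0.989), a sodium, calcium and potassium exchanger. The genes unc79 and unc80 encode partners of the NALCN sodium leak channel. For Syt1 they were slgA (0.994), a proline dehydrogenase gene, Asator (0.993), Sap47 (0.993), the unnamed identifier FBgn0262742 (0.991) and Atpalpha (0.989), the catalytic subunit of the sodium pump. All values share the age groups and the scaling of the same 12 libraries.

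In foxo mutant females at day 3 a part of the machinery was lower than in wild type, in values that were normalized separately from those of the males. The authors' deposited table called 16 of the 38 members lower at an adjusted p under 0.05 and 0 higher. The 16 are 42.1% of the set, beside 6.51% of all 9860 genes with an adjusted p called lower and 6.26% called higher. At an unadjusted p under 0.05 the authors' deposited table has 23 lower and 0 higher. The members' median log2 change in the authors' deposited table was -0.22, and 35 lay below 0. The 16 called in the authors' deposited table ran from -0.43 to -0.21, or from 74.1% to 86.2% of the wild-type level. The scaling of the authors' deposited table could not be varied, and without values per library no overlap of groups can be given. At an adjusted p under 0.01 the authors' deposited table gives 10.

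By role, the authors' deposited table called 4 of 8 fusion genes, 3 of 7 calcium sensors, 4 of 7 active zone genes, 3 of 4 vesicle genes, 2 of 9 endocytosis genes and 0 of 3 adhesion genes lower in the mutant. Among fusion genes in the authors' deposited table, Syx1A stood at -0.43 ± 0.12, adjusted p = 0.00622 (log2 change of mutant over wild type ± SE), the largest of all members, with nSyb at -0.26 ± 0.06, adjusted p = 0.000519, alphaSnap at -0.23 ± 0.08, adjusted p = 0.0273 and cpx at -0.22 ± 0.07, adjusted p = 0.0183. Those 4 hold the vesicle SNARE, 1 of the plasma membrane SNAREs, the clamp and the recycling adaptor. Snap25 in the authors' deposited table was at -0.21 ± 0.08, adjusted p = 0.0697, close to cpx in size though not called. There comt was at -0.08 ± 0.08, adjusted p = 0.637, and no difference between genes was tested. Among calcium sensors in the authors' deposited table Frq1 was at -0.34 ± 0.10, adjusted p = 0.0103, Syt4 at -0.33 ± 0.07, adjusted p = 0.000232 and Syt1 at -0.25 ± 0.07, adjusted p = 0.0029, while Frq2 was at 0.01 ± 0.13, adjusted p = 0.979.

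For the active zone the authors' deposited table called 4 of 7 genes lower. Cadps in the authors' deposited table was at -0.36 ± 0.08, adjusted p = 0.000133, unc-13 at -0.34 ± 0.07, adjusted p = 0.000114, Rbp at -0.30 ± 0.09, adjusted p = 0.00807 and brp at -0.30 ± 0.08, adjusted p = 0.00284, while Rim, at -0.13 ± 0.09, adjusted p = 0.417, RhoGAP100F, at -0.22 ± 0.11, adjusted p = 0.193, and Liprin-alpha, at -0.12 ± 0.11, adjusted p = 0.617, were not called in the authors' deposited table. On the vesicle, the authors' deposited table gave Syngr at -0.39 ± 0.09, adjusted p = 0.000293, Rab3 at -0.28 ± 0.08, adjusted p = 0.00497 and Syn at -0.25 ± 0.09, adjusted p = 0.0305. Of the endocytic genes in the authors' deposited table lap was at -0.27 ± 0.08, adjusted p = 0.0116 and shi at -0.21 ± 0.07, adjusted p = 0.0147, and the AP-2 subunits AP-2sigma, at 0.05 ± 0.13, adjusted p = 0.884, and AP-2alpha, at -0.13 ± 0.08, adjusted p = 0.361, were not called. The mean normalized counts behind these values in the authors' deposited table run from 111 for Sytbeta to 7313 for cpx.

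**Figure D5:**
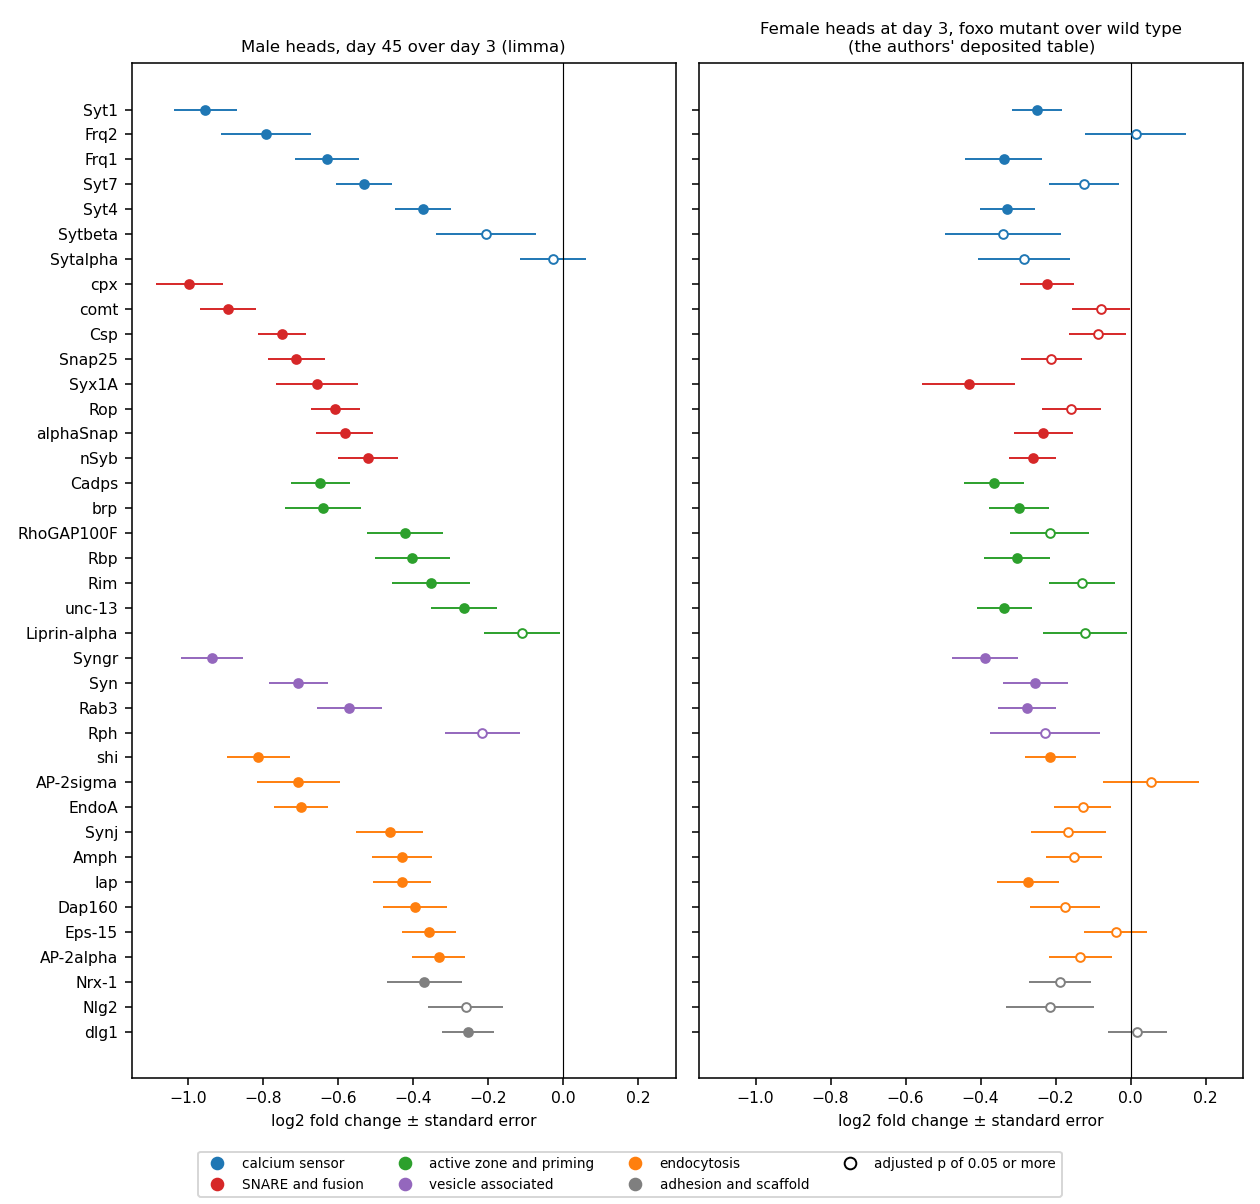
Log2 fold change ± standard error of the 38 genes, coloured by role, for male heads at day 45 over day 3 by limma (left) and for day 3 female heads of foxo mutants over wild type in the authors' deposited table (right), with open symbols where the adjusted p was 0.05 or more. On the left 33 symbols are filled, from -0.997 to -0.25, and on the right 16 are, from -0.43 to -0.21, all below 0, while on the neuron-marker scale 20 of the left-hand values would lie above 0.

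Markers of neurons and of other cells differed between the mutant and wild type as well. Of all genes with an adjusted p in the authors' deposited table, 6.51% were called lower and 6.26% higher. The authors' deposited table called 10 of 16 neuron markers lower and 0 higher, with a median log2 change of -0.31, and elav was at -0.38 ± 0.09 (adjusted p = 0.000756). The authors' deposited table called higher 7 of 10 blood cell markers, 5 of 9 fat body markers and 4 of 10 muscle markers. Lower in the authors' deposited table were 3 of 11 photoreceptor markers, 1 of 10 glia markers and 1 of 9 fat body markers. The part of these cell types in the members' difference was not tested. Fewer of the cells that express the members cannot be told apart from less RNA in each cell. Of the other 45 pathway genes, the authors' deposited table called 8 lower and 2 higher, beside 6.51% and 6.26% of all genes. The lowest of those 8 in the authors' deposited table were unc-104, the kinesin that carries vesicle precursors, at -0.39 ± 0.06 (adjusted p = 1.75e-08), Rbcn-3A, which helps the proton pump assemble, at -0.37 ± 0.08 (adjusted p = 7.96e-05) and Ten-a, a synaptic teneurin, at -0.35 ± 0.10 (adjusted p = 0.00433). The 2 higher in the authors' deposited table were AP-2mu, at 0.37 ± 0.10 (adjusted p = 0.00523), and CG10069, at 0.37 ± 0.13 (adjusted p = 0.0399).

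On the authors' scaling no member was called higher in either comparison, so there the age and mutant calls could not differ in direction. On the neuron-marker scale 9 members were called higher with age. Among them was unc-13 (0.30, limma adjusted p = 0.00782), which was called lower in the mutant. Of the 33 members lower at day 45 in males, 16 were also lower in the mutant by the authors' deposited table. That is 48.5% of them, close to the 42.1% of all 38 members, and 17 were not called in the mutant. Of all 1570 genes called lower with age that the authors' deposited table also tests, 17.3% were lower in the mutant. Genes lower in both made 3.17% of the 8572 genes tested in both. No member was called in the mutant without being called with age, and 5 were called in neither. The sizes did not run together across the 38 genes, with Spearman's rho of -0.01 between the age change and the change in the authors' deposited table, against 0.25 over 8572 genes, again as a description. Of the 9 members with the largest age changes, comt, Frq2, Csp, Snap25 and AP-2sigma were not called in the authors' deposited table, at -0.08, 0.01, -0.09, -0.21 and 0.05. Among called members with smaller age changes, unc-13 and Syt4, at -0.26 and -0.37 with age, were at -0.34 and -0.33 in the authors' deposited table, whereas dlg1 and Eps-15, at -0.25 and -0.36 with age, were at 0.02 and -0.040 there. For AP-2mu, outside the set, the directions were opposite, -1.01 with age and 0.37 in the authors' deposited table. The sexes differ between the comparisons, and no difference between the age and the mutant changes was tested.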

How the data were processed

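RNA of fly heads was measured in 18 libraries. The submitters' processing notes name STAR, HTSeq, DESeq and the build dm6 but no versions. Per the labels' protocols polyadenylated RNA was sequenced, and since nothing there says that strand was kept, overlapping and antisense genes can share reads. The male table was deposited as a normalized signal per gene and library, that is, counts the authors divided by a size factor. The values were whole multiples of 1 read to within 0.001 reads, so whole reads were recovered, 2999956 to 4102364 per library. For females only the authors' comparison was deposited, with a mean of normalized signal, the log2 fold change of mutant over wild type, its standard error, a test score and the authors' p-value and adjusted p-value. No source used here says if these folds were shrunken.

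The male identifiers were matched to the Ensembl annotation of dm6 (10701 of 10884), and the female names by symbol (8339) or synonym (2032), with 109 unmatched. The ages were compared with limma (trend option, 4 ages in 1 fit) on log2 values with a pseudocount of 1. The 8921 genes that reached 10 in 3 or more libraries were tested, and p-values were adjusted over all of them. Mutant calls rest on the authors' adjusted p, with 0.05 as the limit for both. The scripts were tested on simulated data. Alternatives left out each library, added the replicate number, changed the scaling, filter, pseudocount and ages in the fit, or tested recovered reads with edgeR and DESeq2. Values in every library are given for the 3 most changed called members of each role and for members called both with age and in the mutant, and Sytalpha was added for contrast after its values were seen. The members and all gene lists were chosen with earlier results of these data known. Tools were R 4.3.3, limma 3.58.1, edgeR 4.0.16, DESeq2 1.42.0, Python 3.11.15, pandas 2.3.3, numpy 2.4.6, scipy 1.17.1 and matplotlib 3.10.9.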

Additional observations from a re-analysis of the deposited data

How the results depend on the processing

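The 33 members lower at day 45 were 31 to 34 when single libraries were left out, 34 with the replicate block, and within 1.5 times of 33 under every other alternative run except the neuron-marker scale, with 5 lower and 9 higher. On that scale 9 of the 25 members given in full changed sign, RhoGAP100F (0.14), Nrx-1 (0.19), dlg1 (0.30), nSyb (0.040), lap (0.13), Rbp (0.16), Syt4 (0.19), unc-13 (0.30) and Sytalpha (0.53), and 11 kept their sign but not their call. The 20 members lower at day 15 were 12 to 22 without single libraries and 0 on the neuron-marker scale, with 3 higher. The 3 lower between days 15 and 30 were 0 to 8 without single libraries, 0 on the neuron-marker scale, 11 with only the 2 ages in the fit, 15 without both day 3 replicate 1 and day 45 replicate 3, and 9 by DESeq2. Between days 30 and 45 the count of 0 became 1 without those 2 libraries. The 1 member whose early and late steps differed became 0 with the upper quartile scaling, the neuron-marker scale or the replicate block, 2 without the 2 libraries, 3 by DESeq2, and 0 to 4 without single libraries. The 16 lower in the mutant were 10 at an adjusted p under 0.01. Beyond the neuron-marker scale, whose construction divides out the fall of the markers, the cause of these shifts was not tested. Same-numbered libraries of different ages did not deviate together (correlations from -0.25 to 0.15 over 18 pairs), beside -0.18 to 0.30 over 36 unlike-numbered pairs. These correlations, from 3 libraries an age, cannot show whether the numbers mark a shared batch. Apart from the counts given, the replicate block gave 20 lower at day 15, 2 between days 15 and 30 and 0 between days 30 and 45. For the mutant comparison no such fit could be made, since the female table holds no library values. With 3 libraries an age, the spread limits small changes, and only the authors' scaling exists for the females.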
